A study of Mus musculus with 2 samples.

Results

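The 50 genes described here encode cyclins and cyclin-dependent kinases (CDKs), the Rb and E2F proteins, replication licensing and fork proteins, enzymes of nucleotide supply and proteins of mitosis. They were taken from both count tables by gene symbol. All 50 were among the 22609 gene rows and all 50 were among the 12186 genes with at least 20 counts summed over both libraries, which are called the genes tested below although no test between replicates was possible. The RNA was recovered with an Ago2 antibody from TM4 cells, an established mouse Sertoli cell line, which had received either miR-471-5p mimic or scramble 48 h earlier. Both groups were the same line grown and immunoprecipitated in the same way, and each group was 1 library. The sequencing of these pull-downs addressed which mRNAs Ago2 holds when miR-471-5p is overexpressed. No library of RNA before the pull-down was analysed here. A change in mRNA amount, a change in the share of cells in a phase of the cycle and a change in association with Ago2 therefore cannot be told apart.

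Cell division is driven by CDKs that are switched on by cyclins made in turn. In G1, D-type cyclins with Cdk4 or Cdk6 and then E-type cyclins with Cdk2 phosphorylate Rb, which frees E2F factors to transcribe the genes of DNA replication. Cdc6 and Cdt1 load the Mcm2 to Mcm7 helicase onto origins before S phase, and cyclins A and B with Cdk1 then bring the cell through G2 into mitosis. Sertoli cells of the adult testis have largely left this cycle, while TM4 is a dividing line derived from immature mouse testis.

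The miRNA sequences bear on these genes because several miRNA families are known regulators of G1 cyclins and CDKs. The mature sequences below are from RefSeq (GRCm38.p6), 5′ to 3′, with the seed (bases 2 to 8) in capitals. miR-15a-5p shares its seed with miR-16-5p and miR-17-5p shares its seed with miR-20a-5p, whereas the seed of the transfected miR-471-5p matches none of the others shown.
miR-471-5p: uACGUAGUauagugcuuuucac
miR-15a-5p: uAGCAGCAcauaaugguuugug
miR-16-5p: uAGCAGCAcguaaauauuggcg
miR-17-5p: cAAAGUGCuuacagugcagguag
miR-20a-5p: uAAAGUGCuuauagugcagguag
miR-34a-5p: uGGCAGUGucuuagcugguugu
let-7a-5p: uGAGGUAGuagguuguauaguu

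The longest annotated 3′UTR of each gene (GENCODE M21, GRCm38) was searched for the letters that pair with each seed. Coding regions were not searched. The miR-471-5p match ACTACGT was found in 1 of the 50 genes (2%) and in 183 of the 11755 tested genes with a 3′UTR (1.56%). The gene was Mad2l1, a subunit of the spindle checkpoint, and the 30-base window that holds the match is chr6:66541528-66541557 on the plus strand. The miR-15/16 match TGCTGCT was present in 12 members (24%) and in 25.3% of tested genes. All 3 D-type cyclins and Cdk6 were among these 12 members, as were the G1 genes Ccne1 and Cdc25a and the G2/M kinase Cdk1. Cdk6 holds 3 such matches, of which the first is shown, and it also holds matches of miR-34a. The 30-base windows that hold the matches are chr7:144930383-144930412 (Ccnd1, minus strand), chr6:127128530-127128559 (Ccnd2, minus strand), chr17:47599283-47599312 (Ccnd3, plus strand) and chr5:3524534-3524563 (Cdk6, plus strand). They are shown because the G1 genes were the phase with the most members below the fold threshold used below. They are a selection, and carriers of the match lay on both sides of 0. The match is in capitals.
Mad2l1, miR-471-5p match: atccccaaacaACTACGTaccacctttttc
Ccnd1, miR-15/16 match: gcatgccaccaTGCTGCTggcccgggggga
Ccnd2, miR-15/16 match: gtttcacggtgTGCTGCTattttagaaaca
Ccnd3, miR-15/16 match: gttgctttgctTGCTGCTtagcttctgtga
Cdk6, miR-15/16 match: gttgcacagggTGCTGCTatctcaaagaca

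The 50 genes together took 157721 counts with mimic and 173212 with scramble, or 0.847% and 0.925% of all counts on genes. Total counts on genes were 18628310 and 18717225, and 3 counts correspond to 0.161 and 0.16 CPM (counts scaled by library size). Reads that aligned to more than one place made up 39.8% and 35.6% of the entries and were not assigned to genes. For 5 members RefSeq lists a pseudogene under the same name (Ccnd3, Pcna, Tyms, Ccnb1 and Ccnb2), and part of their reads may have been left out in this way. The Sertoli label was checked against 19 marker genes, of which 18 were in the tables. Of these, 10 had at least 20 counts, including the Sertoli transcription factors Sox9 (1228 counts with mimic and 1070 with scramble) and Gata4 (341 and 365), but Fshr was at 0 in both libraries and Amh had 5 counts in each. The Sertoli markers summed to 7371 CPM with mimic and 5525 CPM with scramble, mostly through Vim, which mesenchymal cells in general express (121464 and 83153 counts). Among 9 markers of peritubular myoid cells and fibroblasts 7 had at least 20 counts, with a summed level of 13221 CPM (mimic) and 13094 CPM (scramble), in which Acta2 (73076 and 101778 counts) and Col1a2 (112585 and 81419 counts) differed in opposite directions. Markers of germ cells summed to 9.48 and 10.3 CPM, those of Leydig cells to 4.6 and 4.93 CPM and those of macrophages to 5.89 and 3.32 CPM. The part of other cell types in the values below was not tested.

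**Figure D1:**
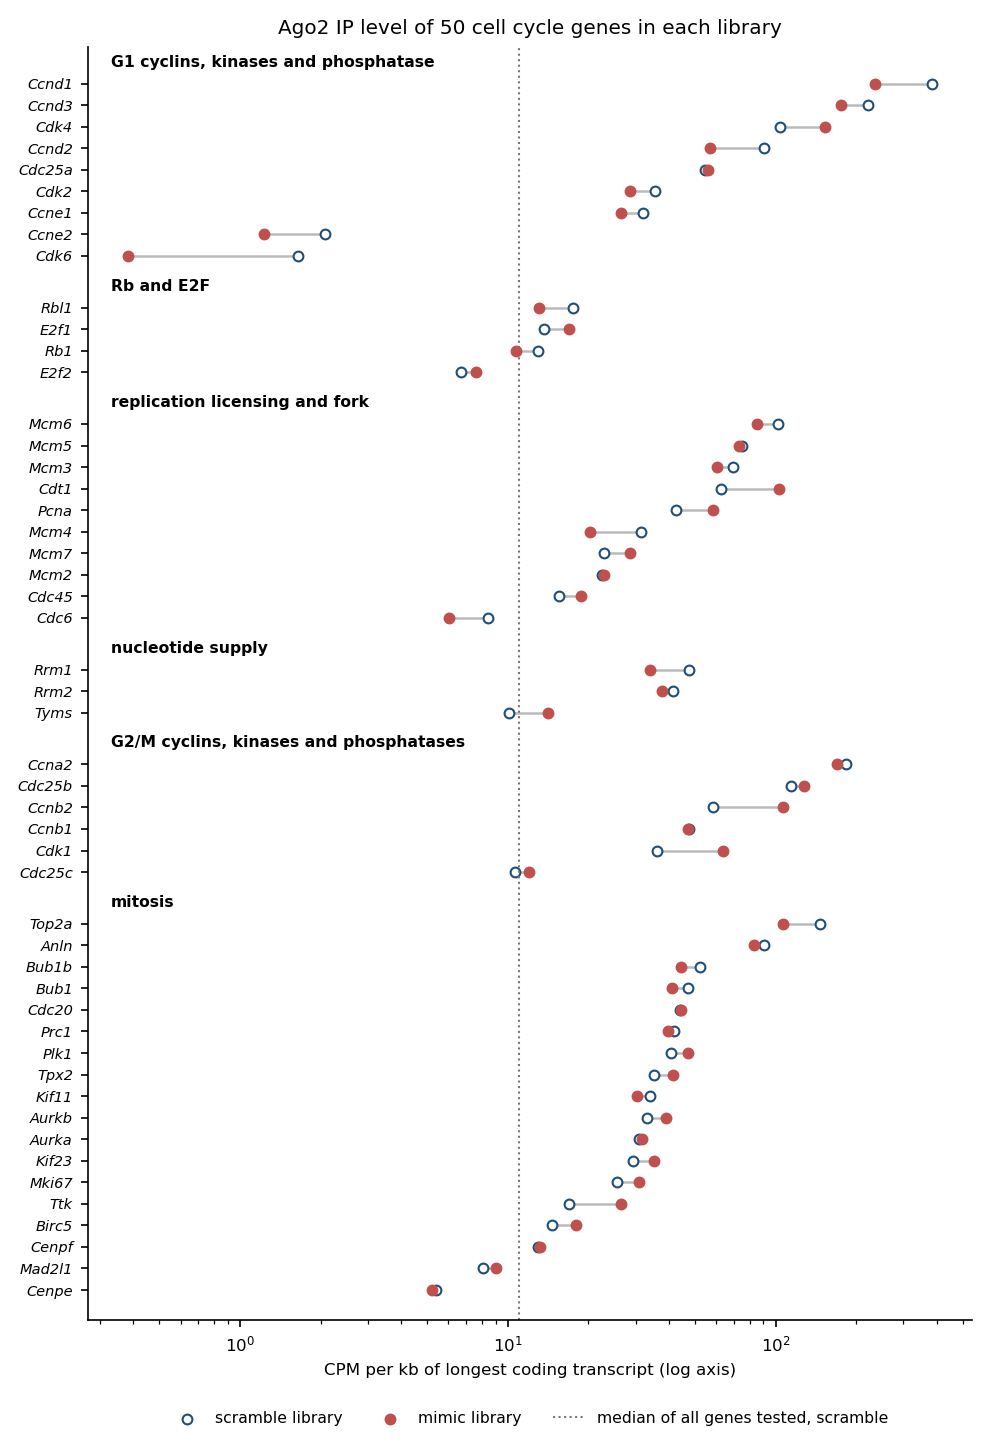
Level of each of the 50 genes in CPM per kilobase of the longest coding transcript (log axis), open circles for the scramble library and filled circles for the mimic library, grouped by phase and ordered by scramble level. Ccnd1 had the highest level (383 in scramble) and Cdk6 the lowest (1.64), and the dotted line marks the median of all genes tested in scramble (11).

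The cell cycle genes were well represented in both pull-downs. To compare genes with each other, counts were expressed as CPM per kilobase of the longest coding transcript. The median level of the 50 genes was 35.3 in the scramble library and 36.5 in the mimic library, against 11 in both for all genes tested. Their median rank in the scramble library was the 80.8th percentile. Levels in scramble ranged from 1.64 for Cdk6 to 383 for Ccnd1, which encodes cyclin D1. The summed counts of a member ranged from 186 (Ccne2) to 43179 (Ccnd1).

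The ratio of the mimic to the scramble library was centred on no difference for the members as a whole. Their median log2 ratio was -0.001, the same as the median of all genes tested (-0.001), with 25 members above 0 and 25 below, while 49.9% of all genes were above 0. A log2 ratio of -0.5 or less was found for 5 of 50 members (Cdk6, Ccne2, Ccnd1, Ccnd2 and Mcm4), where the share of all genes tested was 12.2%. A ratio of 0.5 or more was found for another 5 (Ccnb2, Cdk1, Cdt1, Ttk and Cdk4), where the share of all genes was 14.9%. These member counts are near or under the background and are no result about the list as a whole. At a log2 ratio of -1 or less there was 1 member, Cdk6 (3.08% of all genes), and at 1 or more there was none (3.96% of all genes). The members nearest to the threshold were Cdc6 (-0.49) and Rrm1 (-0.48) just outside it on the lower side, and Tyms (0.48) and Pcna (0.46) on the upper side.

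Depth set how finely these ratios could be read. For each gene a 95% exact interval (Clopper-Pearson) was placed on the share of its counts that came from mimic. On the log2 scale this interval lay wholly above 0 for 19 members and wholly below 0 for 21, and it held 0 for 10. The corresponding shares of all genes tested were 31.5% and 32.5%. Such intervals cover counting error only, and sequenced reads are not independent molecules. With 1 library per group the spread between replicates is unknown, so each ratio compares 2 libraries and has no replicate check. The members were deeper than most genes, with a median of 3860 counts against 1277. Among the 3145 genes with totals from 2254 to 7435, the quartiles of the members, 9.22% had a log2 ratio of -0.5 or less and 8.78% had 0.5 or more.

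**Figure D2:**
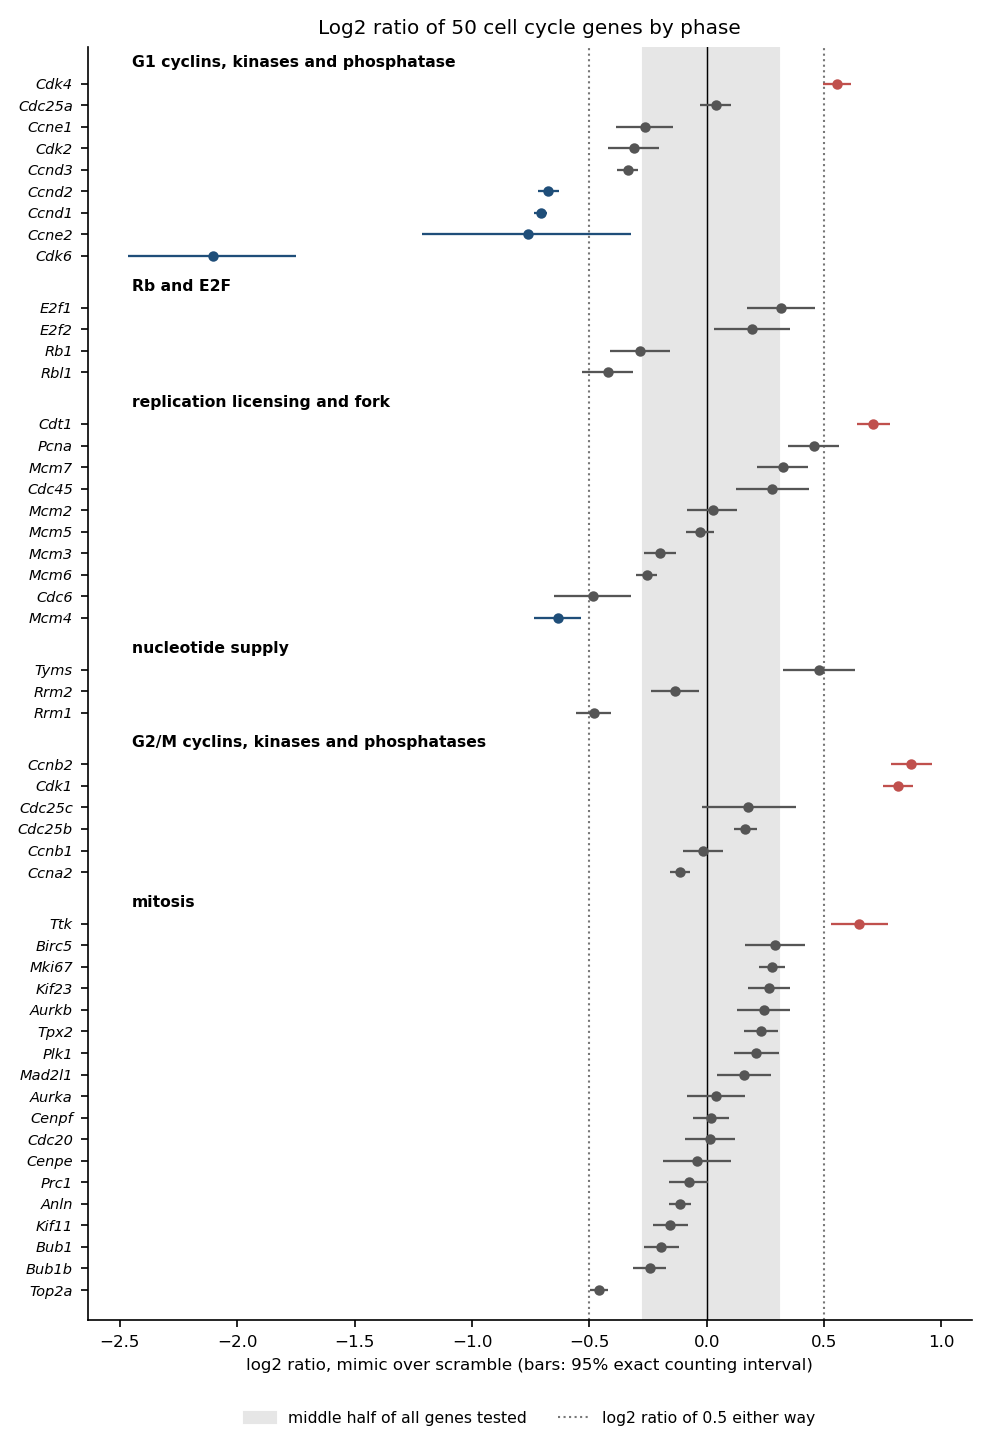
Log2 ratio of mimic to scramble for each of the 50 genes with its 95% exact counting interval (bars), grouped by phase. Blue points are the 5 genes at -0.5 or less, red points the 5 genes at 0.5 or more, and the grey band spans the quartiles of all genes tested (-0.27 to 0.31). The bars do not include variation between replicates.

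The phases differed in where their ratios lay. The G1 cyclins, kinases and phosphatase had a median log2 ratio of -0.34 (n = 9 genes), with 7 of 9 below 0. The G2/M cyclins, kinases and phosphatases had a median of 0.17 (n = 6), with 4 of 6 above 0, so that their median was 0.51 above that of G1. Mitotic genes (0.028, n = 18), replication licensing and fork genes (-0.003, n = 10), Rb and E2F genes (-0.045, n = 4) and the enzymes of nucleotide supply (-0.14, n = 3) lay nearer to the median of all genes. The ranges of all 6 phases overlapped, and no gene of Rb and E2F or of nucleotide supply reached the threshold in either direction. Summed over genes, the G1 group had 2255 CPM in the mimic library and 3061 CPM in the scramble library, and the G2/M group had 1478 and 1280 CPM. Most of the G1 difference lay in Ccnd1 (878 and 1434 CPM) and Ccnd2 (359 and 573 CPM). In G2/M the genes other than Ccnb2 and Cdk1 had log2 ratios from -0.11 to 0.18. Genes within a phase share their libraries and are not replicates, so these differences are descriptions without a test.

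The D-type cyclins, which carry growth signals into the cycle by activating Cdk4 and Cdk6, had lower counts in the mimic library for all 3 members. Ccnd1 had 16406 counts with mimic and 26773 with scramble, a log2 ratio of -0.71 (counting interval -0.73 to -0.68). Ccnd2 had 6710 and 10706 counts, with a log2 ratio of -0.67 (-0.72 to -0.63). For Ccnd3 the counts were 6932 and 8754 and the ratio was -0.34, inside the threshold. Their summed level was 1609 CPM with mimic and 2477 CPM with scramble. Ccnd1 and Ccnd2 kept nearly the same proportion to each other, since the Ccnd1 level per kilobase was 4.14 times that of Ccnd2 in the mimic library and 4.23 times in the scramble library.

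The CDK partners of these cyclins lay on opposite sides. Cdk6 had 82 counts with mimic and 352 with scramble, a 4.29-fold lower value with mimic (log2 ratio -2.10, counting interval -2.47 to -1.75). This was the lowest ratio of the 50 genes and lay at the 0.336th percentile of all genes tested. Cdk4 had 5851 counts with mimic and 3983 with scramble (log2 ratio 0.55, 0.50 to 0.61). Cdk4 had the highest level of the G1 kinases in both pull-downs, at 153 and 104 CPM per kilobase against 0.381 and 1.64 for Cdk6. The level of Cdk4 was thus 401 times that of Cdk6 in the mimic library and 63.5 times in the scramble library. These levels rest on the longest coding transcripts, of 2053 nucleotides for Cdk4 and 11525 for Cdk6. Which transcripts were present was not tested. Without Cdk4 the median log2 ratio of the G1 genes was -0.51, and without Cdk6 it was -0.32.

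The E-type cyclins and Cdk2, which act later in G1, had lower counts with mimic for all 3 genes. Ccne2, 1 of the 2 E-type cyclins, had 69 counts with mimic and 117 with scramble (log2 ratio -0.76), and its counting interval of -1.21 to -0.32 was the widest of the 50. Ccne1 had 991 and 1190 counts (-0.26), and its level was 21.6 times that of Ccne2 with mimic and 15.3 times with scramble. Cdk2, the kinase of the E-type cyclins, had 1282 and 1590 counts (-0.31). Cdc25a, the phosphatase that removes inhibitory phosphate from Cdk2, had 3787 and 3687 counts, and its interval held 0.

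The Rb and E2F genes lay on both sides of 0. The pocket proteins, which hold E2F inactive, had ratios below 0: Rb1 had 931 counts with mimic and 1133 with scramble (-0.28), and Rbl1, which encodes p107, had 1188 and 1590 (-0.42). Of the activating factors, E2f1 had 871 and 699 counts (0.32) and E2f2 had 676 and 591 (0.19). E2f3, a further activating factor outside the 50 genes, had 1766 and 1986 counts (-0.17, counting interval -0.26 to -0.08). Rbl1 had the highest level of the group in scramble (17.5 CPM per kilobase) and E2f2 the lowest (6.68). None of the 4 members passed the threshold of 0.5, and no counting interval of these genes held 0.

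Among replication genes the licensing factors Cdt1 and Cdc6, which act together to load the helicase, lay apart. Cdt1 had 4202 counts with mimic and 2568 with scramble (log2 ratio 0.71, 0.64 to 0.78), while Cdc6 had 521 and 729 counts (-0.49). The Cdt1 level was 17 times that of Cdc6 in the mimic library and 7.43 times in the scramble library. Cdc6 had the lowest level of the replication genes in scramble (8.46 CPM per kilobase). Set against Gmnn, which encodes the Cdt1 inhibitor geminin and is not among the 50, the Cdt1 level was 1.09 times as high with mimic and 0.893 times as high with scramble.

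The helicase subunits Mcm2 to Mcm7 are assembled in equal numbers, but their ratios were spread. Mcm4 had 1357 counts with mimic and 2105 with scramble (log2 ratio -0.63, -0.73 to -0.54) and was the only subunit past the threshold. Mcm7 lay at the other end with 1583 and 1264 counts (0.32). Mcm6, with the highest level of the replication genes in scramble (102 CPM per kilobase), had 6953 and 8298 counts (-0.26). Mcm3 had 3407 and 3911 counts (-0.20), whereas the intervals of Mcm2 (1444 and 1419) and Mcm5 (4624 and 4718) held 0. The 6 subunits summed to 1037 CPM with mimic and 1163 CPM with scramble. At the fork, the helicase cofactor Cdc45 had 754 and 621 counts (0.28) and the sliding clamp Pcna had 1653 and 1205 (0.46).

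The enzymes that supply deoxynucleotides lay on both sides of 0. Rrm1, the large subunit of ribonucleotide reductase, had 2538 counts with mimic and 3542 with scramble (-0.48), and the small subunit Rrm2 had 1541 and 1692 (-0.14). Tyms, thymidylate synthase, had 834 and 599 counts (0.48). Rrm1 had the highest level of these 3 genes in scramble (47.5 CPM per kilobase) and Tyms the lowest (10.1).

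The G2/M genes held the members with the highest ratios. Ccnb2, encoding cyclin B2, had 3062 counts with mimic and 1672 with scramble, 1.83-fold higher with mimic (log2 ratio 0.87, 0.79 to 0.96). Its kinase Cdk1 had 5201 and 2957 counts, 1.76-fold higher (0.81, 0.75 to 0.88). The second B-type cyclin did not follow, since Ccnb1 had 2179 and 2203 counts with an interval that held 0. The level of Ccnb2 was therefore 2.28 times that of Ccnb1 with mimic and 1.23 times with scramble. Cdk1 stood at 2.23 times the level of Cdk2 with mimic and at 1.02 times with scramble. Ccna2, the cyclin of S phase and G2 and the most abundant of this group (169 and 183 CPM per kilobase), had 9344 and 10107 counts (-0.11). The phosphatases that activate Cdk1 had ratios above 0 but within the threshold, at 0.16 for Cdc25b (7378 and 6579 counts) and 0.18 for Cdc25c (437 and 386 counts, interval holding 0). Cdc25c had the lowest level of the group in scramble, at 10.6 CPM per kilobase.

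The 18 mitotic genes had the narrowest spread, with a standard deviation across genes of 0.26 against 0.73 for G1 and 0.59 for all genes tested. Without Cdk6 the G1 value was 0.44. The mitotic genes all had at least 1565 counts, while all genes tested reach down to 20, where counting error is larger. Of them 11 lay above 0 and 7 below. Ttk, the kinase that starts spindle checkpoint signalling, was the only one past the threshold, with 1421 counts with mimic and 905 with scramble (log2 ratio 0.65, 0.53 to 0.77). Other checkpoint genes lay on both sides of 0: Bub1 had 2621 and 2994 counts (-0.19), Bub1b had 3031 and 3585 (-0.24), and Mad2l1, the carrier of the miR-471-5p match, had 1273 and 1140 (0.16). Cdc20, the activator of the anaphase-promoting complex, had 1491 and 1476 counts with an interval that held 0.

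The Polo-like and Aurora kinases, which drive spindle assembly and chromosome segregation, were all within the threshold. Plk1 had 1939 counts with mimic and 1673 with scramble (0.21), Aurkb had 1423 and 1203 (0.24), and Birc5, a subunit of the Aurkb complex, had 1112 and 910 (0.29). Aurka had 1131 and 1100 counts, with an interval that held 0, and its activator Tpx2 had 3369 and 2868 (0.23). Among motors and midzone proteins, Kif23 was above 0 (2242 and 1866 counts, 0.26), Kif11 was below 0 (2743 and 3053, -0.16), and the intervals of Prc1 and Cenpe held 0. Cenpe had the lowest level of the mitotic genes in scramble (5.38 CPM per kilobase), with 771 and 794 counts. Anln, an actin-binding protein of the cleavage furrow, had 7176 and 7760 counts (-0.11), and the interval of the kinetochore gene Cenpf held 0.

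The proliferation markers Mki67 and Top2a went opposite ways. Mki67, the gene for Ki-67, had 5827 counts with mimic and 4808 with scramble (0.28). Top2a, the topoisomerase that untangles chromosomes and the mitotic gene with the highest level in scramble (147 CPM per kilobase), had 10395 and 14282 counts (-0.46). Neither passed the threshold of 0.5.

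Transcript length moved with the ratio across all genes, so the members were also read against genes of like length. The tested genes were divided by length into 10 groups of near equal size. In the group with the shortest transcripts the median log2 ratio was 0.45, and in the group with the longest it was -0.26. The share of genes at -0.5 or less was 2.64% in the first and 27.6% in the last. Cdk6, with a transcript of 11525 nucleotides of which 10217 are 3′UTR, belongs to the longest group, and Ccnb2, with 1531 nucleotides, to the second shortest. Subtracting the median of the length group left Cdk6 at -1.85, Ccnd1 at -0.61, Ccnb2 at 0.64 and Cdk1 at 0.96. Ccnd2 (-0.47) and Cdk4 (0.44) were then inside the threshold, and Mki67 (0.53) passed it. After this subtraction 4 members were at -0.5 or less (10% of all genes) and 5 at 0.5 or more (11.9% of all genes). The median of the G1 genes was then -0.45 and that of the G2/M genes 0.11, a difference of 0.56. The part of length in the counts was not tested beyond this.

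**Figure D3:**
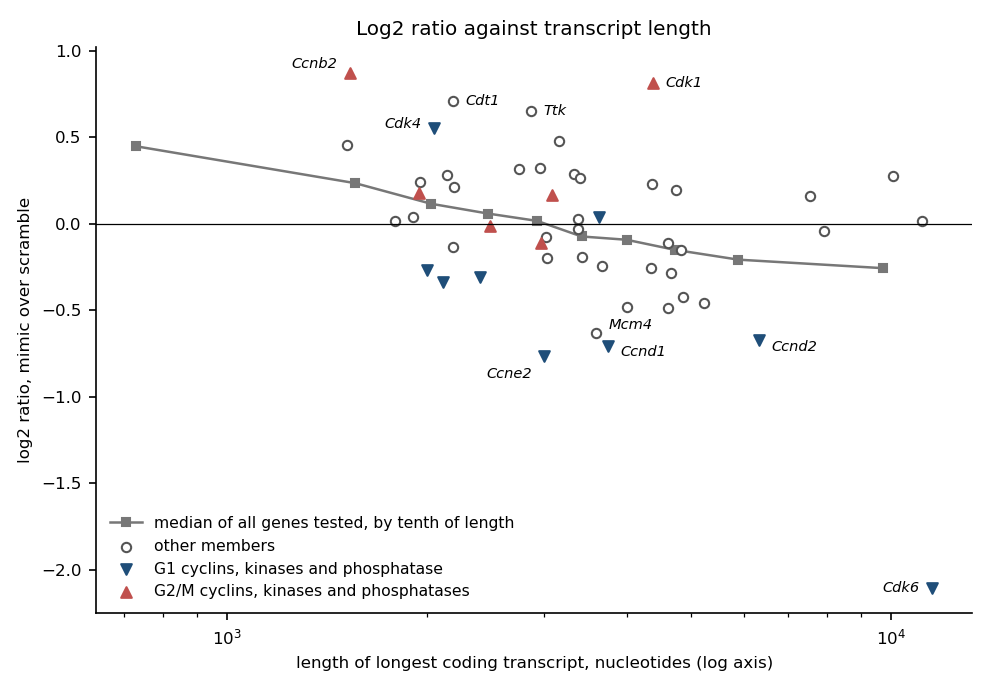
Log2 ratio of mimic to scramble against the length of the longest coding transcript (log axis) for the 50 genes. Down-pointing triangles are G1 genes, up-pointing triangles G2/M genes, open circles the other members, and squares joined by a line the median of all tested genes in each of 10 length groups, which runs from 0.45 to -0.26. Cdk6 lies far below the line and Cdk1 far above it.

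Members that carry seed matches did not share a direction. Of the 12 genes with a miR-15/16 match 6 had ratios below 0 and 6 above. These included Ccnd1, Ccnd2 and Cdk6 at -0.5 or less and Cdk1 at 0.5 or more. The 7-base match of miR-17/20a, GCACTTT, was present in 12 members (24%) and in 15.1% of tested genes, with 7 members below 0 and 5 above. The let-7 match CTACCTC was present in 6 members (12%) and 10.8% of tested genes, with 2 members below 0 and 4 above. The miR-34a match CACTGCC was present in 6 members (12%) and 17.7% of tested genes, with 4 members below 0 and 2 above. Members with a match had a lower median log2 ratio than those without for miR-15/16 (-0.113 and -0.001), miR-17/20a (-0.168 and 0.016) and miR-34a (-0.257 and 0.016). For let-7 the median was higher with a match (0.116 and -0.023). Over all genes tested the median log2 ratio was lower with a match for each family, for example -0.090 against 0.036 for miR-15/16. For miR-471-5p it was -0.015 with a match and -0.001 without. Genes with a match had longer 3′UTRs than genes without, with medians of 2296 and 929 nucleotides for miR-15/16 over all genes tested. A match is a description of the letters, and the levels of these miRNAs were not measured in these libraries.

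Promoter letters differed between the phases. RefSeq promoters of 300 bases (250 before and 50 after the start site, GRCm38.p6) were present for 41 of the 50 genes, and both strands were searched. The E2F letters TTTCCCGC, TTTGGCGC, TTTCGCGC or TTTGCCGC were found in 11 of the 41 (26.8%), in 4.84% of the 8651 tested genes with a promoter and in 2.26% of all 32851 promoters. Of the licensing and fork genes 6 of 9 carried them, and of the mitotic genes 0 of 16. The CHR letters TTTGAA, the element through which the DREAM complex represses genes outside G2 and M, were found in 17 of 41 (41.5%), in 13.9% of tested genes and in 17.9% of all promoters. Here the mitotic genes led with 12 of 16, and the G1 genes had 0 of 6. The letters CCAAT were found in 30 of 41 (73.2%), in 43.8% of tested genes and in 37.4% of all promoters. CHR and CCAAT occurred in the same promoter in 16 members (39%) and in 6.9% of tested genes.

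The windows shown are from licensing genes with the E2F letters and from the G2/M and mitotic genes past the threshold, together with Plk1 and Kif23, with the match in capitals. These 30-base windows are chr8:122568035-122568064 (Cdt1, plus strand), chr11:98908002-98908031 (Cdc6, plus strand), chr5:138171849-138171878 (Mcm7, minus strand), chr9:70421533-70421562 (Ccnb2, minus strand), chr10:69352910-69352939 (Cdk1, minus strand), chr9:83834684-83834713 (Ttk, plus strand), chr7:122159453-122159482 (Plk1, plus strand) and chr9:61946780-61946809 (Kif23, minus strand). Cdc6 and Ttk carry the letters on the opposite strand. Mcm7, Ccnb2 and Cdk1 hold 2 matches of these letters each, of which 1 is shown. The last letter of the Mcm7 match is also the first of a CCAAT match.
Cdt1, E2F letters: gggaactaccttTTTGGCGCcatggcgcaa
Cdc6, E2F letters: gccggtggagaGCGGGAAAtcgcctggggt
Mcm7, E2F letters: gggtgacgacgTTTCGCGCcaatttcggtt
Ccnb2, CHR letters: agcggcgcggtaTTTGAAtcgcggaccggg
Cdk1, CHR letters: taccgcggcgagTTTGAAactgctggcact
Ttk, CHR letters: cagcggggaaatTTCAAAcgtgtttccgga
Plk1, CHR letters: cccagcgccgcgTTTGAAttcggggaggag
Kif23, CHR letters: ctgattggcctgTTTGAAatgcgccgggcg

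Genes that shared letters had ratios on both sides of 0. The 11 members with E2F letters had a median log2 ratio of -0.030, from -0.49 for Cdc6 to 0.81 for Cdk1, and the 30 without them had 0.021. The 17 members with the CHR letters had a median of 0.039, from -0.46 for Top2a to 0.87 for Ccnb2, and the 24 without them had -0.036. The 30 members with CCAAT had a median of 0.016, from -0.48 for Rrm1 to 0.87 for Ccnb2, and the 11 without it had 0.16. Cdt1 and Cdc6, which both carry E2F letters, lay on opposite sides of 0.

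CDK inhibitor and checkpoint genes lay on both sides of 0, with a median above that of all genes. A list of 20 CDK inhibitor and checkpoint genes held 18 with at least 20 counts, and their median log2 ratio was 0.36, with 12 above 0 and 6 below. Of these 7 were at 0.5 or more (14.9% of all genes tested), 0 at -0.5 or less (12.2%) and 3 at 1 or more (3.96%). The list was chosen with earlier results of these data known, so these values are descriptions only. Cdkn1a, encoding the CDK inhibitor p21, had 6143 counts with mimic and 2974 with scramble (log2 ratio 1.05, 0.98 to 1.11). Gadd45a and Gadd45b, genes of the growth arrest and DNA damage response, had 691 and 316 counts (1.13) and 1412 and 690 counts (1.03). Cdkn1b, encoding p27, had 19718 and 13269 counts (0.57). The checkpoint kinases lay on both sides of 0. Chek1 (489 and 677 counts, -0.47) and Wee1 (2645 and 3106 counts, -0.23) lay below 0, as did Mdm2, Atr, Trp53 and Btg2. Chek2 had 442 and 288 counts (0.62, 0.40 to 0.84) and passed the threshold. Atm (889 and 782 counts, 0.18) lay above 0 within the threshold, and the interval of Pkmyt1 held 0. Trp53, which encodes the p53 factor that activates Cdkn1a, had 6929 and 7508 counts (-0.12), and Cdkn2a was at 0 in both libraries. Less the median of its length group, Cdkn1a stood at 0.93, Cdkn1b at 0.72, Gadd45a at 0.68 and Gadd45b at 0.59. No gene of the list was then at 1 or more, and 8 were at 0.5 or more (11.9% of all genes).

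**Figure D4:**
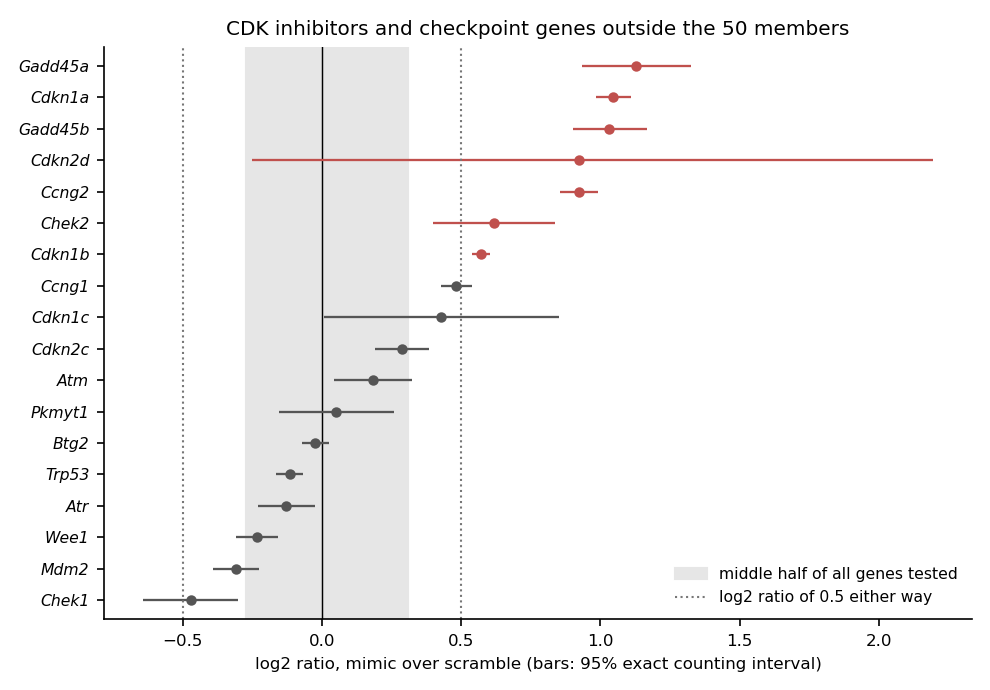
Log2 ratio of mimic to scramble for the 18 CDK inhibitor and checkpoint genes with at least 20 counts, with 95% exact counting intervals (bars). Red points are the 7 genes at 0.5 or more, led by Gadd45a (1.13), Cdkn1a (1.05) and Gadd45b (1.03), and the grey band spans the quartiles of all genes tested. The wide bar of Cdkn2d rests on 19 and 10 counts.

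Set beside cyclin D1, the inhibitors Cdkn1a and Cdkn1b had a higher relative level in the mimic pull-down. This restates the ratios given above, which were below 0 for Ccnd1 and above 0 for both inhibitors, and is no further result. The Cdkn1a level per kilobase was 0.673 times that of Ccnd1 with mimic and 0.2 times with scramble. The Cdkn1b level was 0.987 times that of Ccnd1 with mimic and 0.407 times with scramble. The transcription factors downstream of growth signals differed less, with 6305 and 5844 counts for Myc (0.11) and 2311 and 2616 counts for Foxm1, an activator of G2/M genes (-0.18). The 16 other genes of the E2F, pocket protein and DREAM group had a median of -0.115, with 1 gene past the threshold in each direction. The shares of all genes tested were 12.2% on the lower side and 14.9% on the upper side.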

How the data were processed

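For the RNA immunoprecipitated with Ago2 antibody, the authors deposited a table of raw counts for each library. The submitters' processing notes name CASAVA 1.8.2, TopHat2 2.0.8b, HTSeq and the mm9 build. The annotation, strand setting and read length are not given in the sources used here. Rows that name no gene, 47.3% of the entries with mimic and 44.1% with scramble, stayed out of library sizes. TMM scaling (edgeR 4.0.16 under R 4.3.3) gave factors of 1.0026 for mimic and 0.9974 for scramble. The log2 ratio was taken from scaled counts where both libraries summed to at least 20 counts. With 1 library per group a quasi-likelihood fit was not possible, so no p-value is given. Calls were log2 ratios of at least 0.5 in either direction. Counting intervals were 95% Clopper-Pearson intervals, and the calculation was tested on simulated data. Transcript lengths and 3′UTRs came from GENCODE M21 (GRCm38) by symbol, for 99.1% of tested genes. Because the counts were made on mm9, GRCm38 coordinates locate sequences only. Members past 0.5, the highest and lowest of each phase by level, wider-list genes past 1 and Cdkn1a, Cdkn1b, Cdkn2a, Trp53, Foxm1 and Myc were to be named. Cdkn2d, Gmnn, E2f3, Chek2, Atm, Pkmyt1, the inhibitor and checkpoint genes below 0 and the other members were named in addition, after their values were seen. Members and lists were chosen with earlier results of these data known. Alternatives were size factors of DESeq2 1.42.0, total counts, no filter or at least 200 counts, a threshold of 1, the interval bound nearest 0, and centring within 10 length groups. Python 3.11.15, numpy 2.4.6, scipy 1.17.1, pandas 2.3.3 and matplotlib 3.10.9 were used.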

Additional observations from a re-analysis of the deposited data

How the results depend on the processing

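Of 98 alternative values over 19 results, 88 stayed within the counting interval and 10 moved more. For counts of genes the bound was 1.5 times, and for medians the median interval half-width. Size factors, total counts and the count filters rescale all genes nearly alike, so they could hardly move the ratio of a gene. For Ccnb2 they gave 0.869 to 0.883 against 0.872. All 10 moves came from length centring or the threshold of 1, so the 88 say little about stability. Medians near 0 changed sign. With length centring the median of Rb and E2F genes went from -0.045 to 0.084, that of licensing and fork genes from -0.003 to 0.071 and that of all members from -0.001 to 0.041. The last 2 were also above 0 with total counts (0.005 and 0.006) and with at least 200 counts (0.008 and 0.025). Centring within 10 groups of transcript length moved the median of the G1 genes from -0.34 to -0.45 and that of nucleotide supply from -0.14 to -0.25. It also moved Ccnb2 (0.64), Ccnd1 (-0.61), Ccnd2 (-0.47), Cdk1 (0.96), Cdk4 (0.44) and Cdt1 (0.59). With a threshold of 1 there was 1 member on the lower side and 0 on the upper side, in place of 5 and 5. At 200 counts or more 49 members were left, without Ccne2. No paired analysis was possible because each group has 1 library, and no library could be left out. The depth resolves the log2 ratio of a member with a median interval half-width of 0.092, which covers counting error alone.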

Other observations

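Wider lists of cell cycle genes gave further values. Condensin and cohesin genes, which fold chromosomes and hold sister chromatids together, had a median log2 ratio of -0.39 over 17 genes, with 15 of 17 below 0. Of these 6 were at -0.5 or less and 0 at 0.5 or more, against 12.2% and 14.9% of all genes tested. Pds5a, a cohesin regulator, had 682 counts with mimic and 1922 with scramble (-1.50). These transcripts were long, with a median of 4851 nucleotides against 3165 for all genes. Less the median of their length group their median was -0.26, with 3 genes at -0.5 or less (10% of all genes).

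The 42 genes of origins, polymerases and clamp loaders had a median of 0.068, with 2 at -0.5 or less and 5 at 0.5 or more. The shares of all genes tested were 12.2% and 14.9%. Mcm9, a helicase of DNA repair, had 72 and 163 counts (-1.18). The 43 kinetochore, spindle and anaphase complex genes had a median of -0.069, with 8 at -0.5 or less and 4 at 0.5 or more, against the same shares. Less the median of their length group these counts were 5 and 2 (10% and 11.9% of all genes). Casc5, a kinetochore scaffold, had 268 and 559 counts (-1.06).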
